A study of Rattus norvegicus with 6 samples.

Results

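Mitosis and kinetochore genes, chosen by symbol from a fixed list of 57, were followed in RNA sequencing of rat pancreatic islets before and after birth. The expression table of 18625 named genes held 52 of them, and Ccnb1, Ccnb2, Top2a, Ncapd2 and Hmmr are not analysed here. Islets hold the endocrine cells of the pancreas, which secrete insulin, glucagon and other hormones, and total RNA of freshly isolated islets was sequenced after removal of ribosomal RNA. The postnatal group holds 3 libraries of neonatal islet cells whose titles all give 2 weeks of age, while their age labels give postnatal week 2 for replicate 1, week 3 for replicate 2 and week 4 for replicate 3. The E19 group holds 3 libraries of fetal islet cells from embryonic day 19. The labels name no strain, treatment or transgene for either group. They do not say whether replicates came from separate litters, so the spread that p-values measure here is the one among these 6 libraries and could be technical.

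A dividing cell first raises cyclin-dependent kinase activity, then condenses its chromosomes, builds a kinetochore on each centromere, attaches it to spindle microtubules, and separates the chromosomes once the spindle checkpoint is satisfied. The proteins that do this are made mostly late in the cycle, so their transcripts are abundant in cycling cells and scarce in resting ones. Beta cells of rodents divide often in late fetal and neonatal life and rarely in the adult.

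Expression is given as scaled CPM, reads divided by a library size that was adjusted between libraries, on which 1 read was worth 0.0341 to 0.0506 in postnatal libraries and 0.0242 to 0.0308 in E19 libraries. The depth was 28174506 to 29515446 reads in postnatal libraries and 26051449 to 37819935 reads in E19 libraries. The groups differed in cell type markers. Summed over 13 of 14 acinar markers, genes of the enzyme-secreting cells around the islets, the level was 185636 to 539535 in postnatal libraries and 47186 to 73033 in E19 libraries. Over the 12 endocrine markers it was 61532 to 113660 in postnatal libraries and 2468 to 6215 in E19 libraries. Endocrine genes were thus detected in every library but made up only 0.261% to 0.679% of the E19 reads. Erythroid markers, 7 of 10, summed to 18.2 to 27.7 in postnatal libraries, where the embryonic globin gene Hbe1 was at 0 in replicate 1, and to 138 to 301 in E19 libraries. Endocrine progenitor markers, 5 of 5, summed to 2.63 to 4.06 in postnatal libraries, where Neurod2 was at 0 throughout, and to 29.7 to 37.4 in E19 libraries. Liver markers, 7 of 8, summed to 248 to 315 in postnatal libraries and to 295, 7489 and 377 in E19 replicates 1, 2 and 3. E19 replicate 2 therefore stood apart in liver genes, and postnatal replicate 1 in acinar genes.

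All 52 mitosis and kinetochore genes fell after birth. They took 0.143% ± 0.0221 of the reads in postnatal libraries and 0.870% ± 0.0753 in E19 libraries (mean ± SD, n = 3 each). Their summed level was 1739, 1542 and 1535 scaled CPM in postnatal replicates 1, 2 and 3, against 6988, 7252 and 8920 in E19 replicates 1, 2 and 3. The 2 groups of sums lay far apart, and the exact permutation p of 0.1 is the smallest that 3 libraries against 3 allow. The median gene kept 20.1% of its E19 mean.

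Each gene was tested with limma on log2(scaled CPM + 1), the scale of every log2 fold change and its standard error (SE) given here, over the whole table, with Benjamini-Hochberg adjustment and a threshold of 0.05. Of 52 genes, 52 were lower in postnatal libraries and 0 were higher, where 33.1% of the 12926 genes tested were lower and 30.0% were higher. Higher genes made up 47.5% of all calls, and 61.0% after rescaling without the 20 genes of highest mean. edgeR's quasi-likelihood test and DESeq2, run on reads recovered from the table, also called 52 lower, where they called 31.5% and 32.2% of all genes lower. The groups did not overlap in any of the 52, against 36.9% of all genes tested that were lower without overlap. At least a 2-fold fall was present in 49 of them (12.1% of all genes tested) and at least a 4-fold fall in 38 (2.17% of all genes tested). Their log2 fold changes, postnatal over E19, ran from -2.98 to -0.84 with a median of -2.17, and the median of all genes tested was -0.03. Each of the 52 was above the low-value filter of 1 in all 6 libraries, the lowest value being that of Cenph at 1.97 in postnatal replicate 1, from 39 reads. Fewer dividing cells and less of these transcripts per cell cannot be told apart in bulk RNA.

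**Figure D1:**
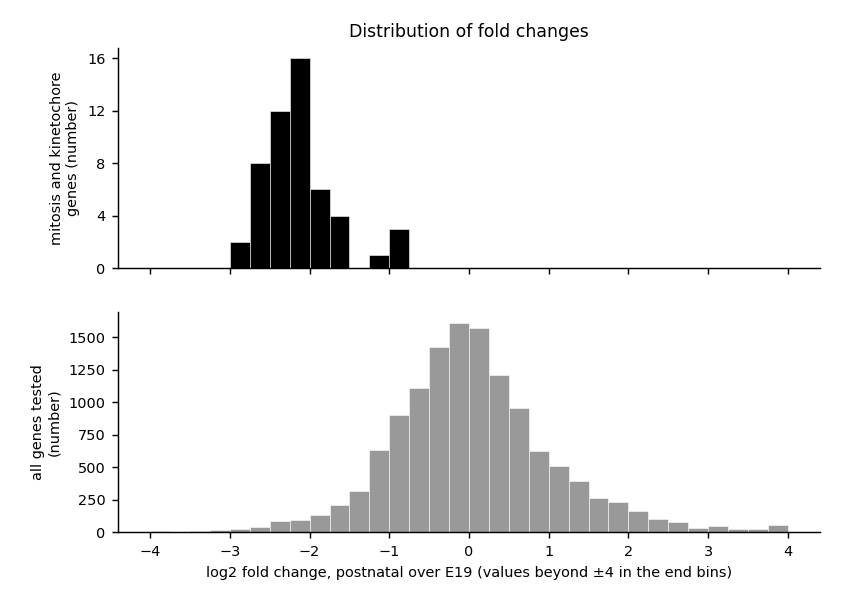
Number of genes by log2 fold change, postnatal over E19, in bins along the horizontal axis, for the 52 mitosis and kinetochore genes (top) and for the 12926 genes tested (bottom). The 52 genes lie between -2.98 and -0.84, while the genes tested centre on -0.03.

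The falls stood beside changes in cell type markers. Erythroid markers fell in 4 of 6 tested and rose in none, liver markers fell in 2 of 6 and rose in none, duct markers fell in 2 of 6 and rose in none, and endocrine progenitor markers fell in 3 of 4 and rose in 1. Acinar markers rose in 11 of 13, endocrine markers in 11 of 12, mesenchymal markers in 6 of 7, endothelial markers in 5 of 5 and leukocyte markers in 1 of 5, with none falling in these 5 lists. Of all genes tested, 33.1% were lower and 30.0% were higher. The liver and duct counts lie near the lower share, and the leukocyte count does not exceed the higher share. The median log2 fold change of the duct list was 0.02. Summed levels were 254 to 429 in postnatal and 363 to 403 in E19 libraries for 6 of 7 duct markers, and 6917 to 12264 in postnatal and 1747 to 2594 in E19 libraries for 7 of 9 mesenchymal markers. They were 357 to 566 in postnatal and 173 to 267 in E19 libraries for 5 of 6 endothelial markers, and 65.6 to 223 in postnatal and 40.8 to 105 in E19 libraries for 7 leukocyte markers, of which Cd3e was at 0 in postnatal replicate 1. The part of these cells in the falls was not tested. The erythroid sum was 138, 301 and 146 in E19 replicates 1, 2 and 3, and Hbe1 alone stood at 46.6, 60.8 and 93.4 there. The sum was thus highest in replicate 2, and Hbe1 in replicate 3. The other erythroid markers summed, Alas2, Epor, Klf1, Gata1, Slc4a1 and Ahsp, were each highest in E19 replicate 2 and lowest in E19 replicate 3. Alas2, for example, stood at 21.8, 44.9 and 14.2 in E19 replicates 1, 2 and 3. With both postnatal replicate 1 and E19 replicate 2 left out, a choice made after the data were seen, 52 genes fell, with a median log2 fold change of -2.25. The remaining libraries still differed in endocrine markers, at 64315 and 113660 in postnatal and 4182 and 2468 in E19 libraries. The omission therefore does not test the part of these cells.

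Promoters of the 52 genes were read for short motifs known from late cell cycle genes. The cell cycle homology region (CHR), read as TTTGAA or its complement TTCAAA, is bound by the MuvB core in its activating and repressing forms, and the CCAAT box, read as CCAAT or ATTGG, by the factor NF-Y. Both strands were searched, and neither motif contains the other, though matches may share end letters. A match is a description of the letters, not of binding. RefSeq promoter windows of the rat assembly GRCr8, 250 bases before to 50 after the annotated start, were at hand for 43 of the 52 genes. Those of the 3 largest falls and of the smallest fall among them are shown, to set the letters at the start of the genes that fell furthest beside those of the gene that fell least. They run from base -120 to base 15 of the start, 5′ to 3′, all on the plus strand, with CHR and CCAAT matches in capitals.
Birc5 (chr10:103572026-103572160): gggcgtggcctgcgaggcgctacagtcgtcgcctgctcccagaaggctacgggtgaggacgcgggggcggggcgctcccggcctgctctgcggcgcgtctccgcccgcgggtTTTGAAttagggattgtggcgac
Bub1b (chr3:126016947-126017081): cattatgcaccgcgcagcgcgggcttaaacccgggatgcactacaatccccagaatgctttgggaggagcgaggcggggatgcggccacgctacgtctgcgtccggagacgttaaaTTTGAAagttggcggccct
Plk1 (chr1:186147538-186147672): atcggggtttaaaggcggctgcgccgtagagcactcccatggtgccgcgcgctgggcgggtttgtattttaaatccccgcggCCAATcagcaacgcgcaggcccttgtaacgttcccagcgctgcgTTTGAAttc
Cdc25b (chr3:138860053-138860187): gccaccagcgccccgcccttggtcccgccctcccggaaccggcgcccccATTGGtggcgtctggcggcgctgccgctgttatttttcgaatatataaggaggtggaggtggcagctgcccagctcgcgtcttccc
The CHR letters begin at base -8 in Birc5, at -4 in Bub1b and at 7 in Plk1, and are absent from the whole window of Cdc25b. The near match TTCGAA was not searched in any window, and the Cdc25b sequence shown holds it. The contrast with Cdc25b therefore holds only for the letters searched.

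Over the 43 windows, 27 (62.8%) held the CHR letters, against 18.3% of all 33469 promoter windows and 11.6% of the 9215 windows of genes tested. Within 50 bases of the start, 18 of 43 (41.9%) held them, against 3.04% of the windows of genes tested. A CCAAT box was present in 30 of 43 (69.8%), against 37.5% of all windows, and both motifs in 20 (46.5%), against 7.41%. Among windows of genes tested these shares were 37.6% and 4.71%. At least 2 CCAAT boxes were present in 44.2% of the 43 and 11.2% of all windows. A TATA box, read as TATAAA or TTTATA, was found in 1 of the 43, and in 14.2% of all windows. The windows of the 43 genes were richer in G and C, with a median of 58.7% against 51.7% over all windows. Repeated CCAAT boxes, TATA boxes and base content were not measured over the windows of genes tested alone. Genes with the CHR letters had a median log2 fold change of -2.25 (27 genes, -2.98 to -1.66) and those without a median of -2.12 (16 genes, -2.64 to -0.84), so the ranges overlapped widely.

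Genes of cyclins, cyclin-dependent kinases and CDC25 phosphatases fell in 7 of 7 cases but by unequal amounts, with related genes often apart. This group is labelled mitotic entry in the figures. It also holds Ccne1, Ccne2 and Cdk2, which belong to the start of DNA replication. Ccna2, encoding cyclin A2, stood at 24.7, 20.3 and 21.6 scaled CPM in postnatal replicates 1, 2 and 3, and at 123, 141 and 156 in E19 replicates 1, 2 and 3. Every postnatal library lay far below every E19 library, and the log2 fold change was -2.60 ± 0.12 (SE; limma adjusted p = 1.49e-05). Cdk1, the kinase that drives mitosis, had 25.3, 22.7 and 25.9 in postnatal libraries and 125, 143 and 168 in E19 libraries (-2.51 ± 0.13). Cdk2, which partners cyclin E at the start of DNA replication, had 26.2, 23.6 and 20.9 in postnatal libraries and 45.4, 44.6 and 48.4 in E19 libraries, and fell by only 0.94 ± 0.11. The cyclin E genes parted as well, since Ccne1 fell by 2.26 ± 0.12 and Ccne2 by 0.86 ± 0.13. So did the CDC25 phosphatase genes, whose products switch the kinases on. Cdc25c fell by 2.15 ± 0.13, whereas Cdc25b, at 14.98, 20.5 and 16.5 in postnatal libraries and 31.5, 41.3 and 24.2 in E19 libraries, showed the smallest fall of all (-0.84 ± 0.20; limma adjusted p = 0.0077). Its E19 values were also the most spread of the 52, with a coefficient of variation of 26.5%. The Cdc25b call was lost after rescaling without the 20 genes of highest mean (-0.61; adjusted p = 0.0512).

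**Figure D2:**
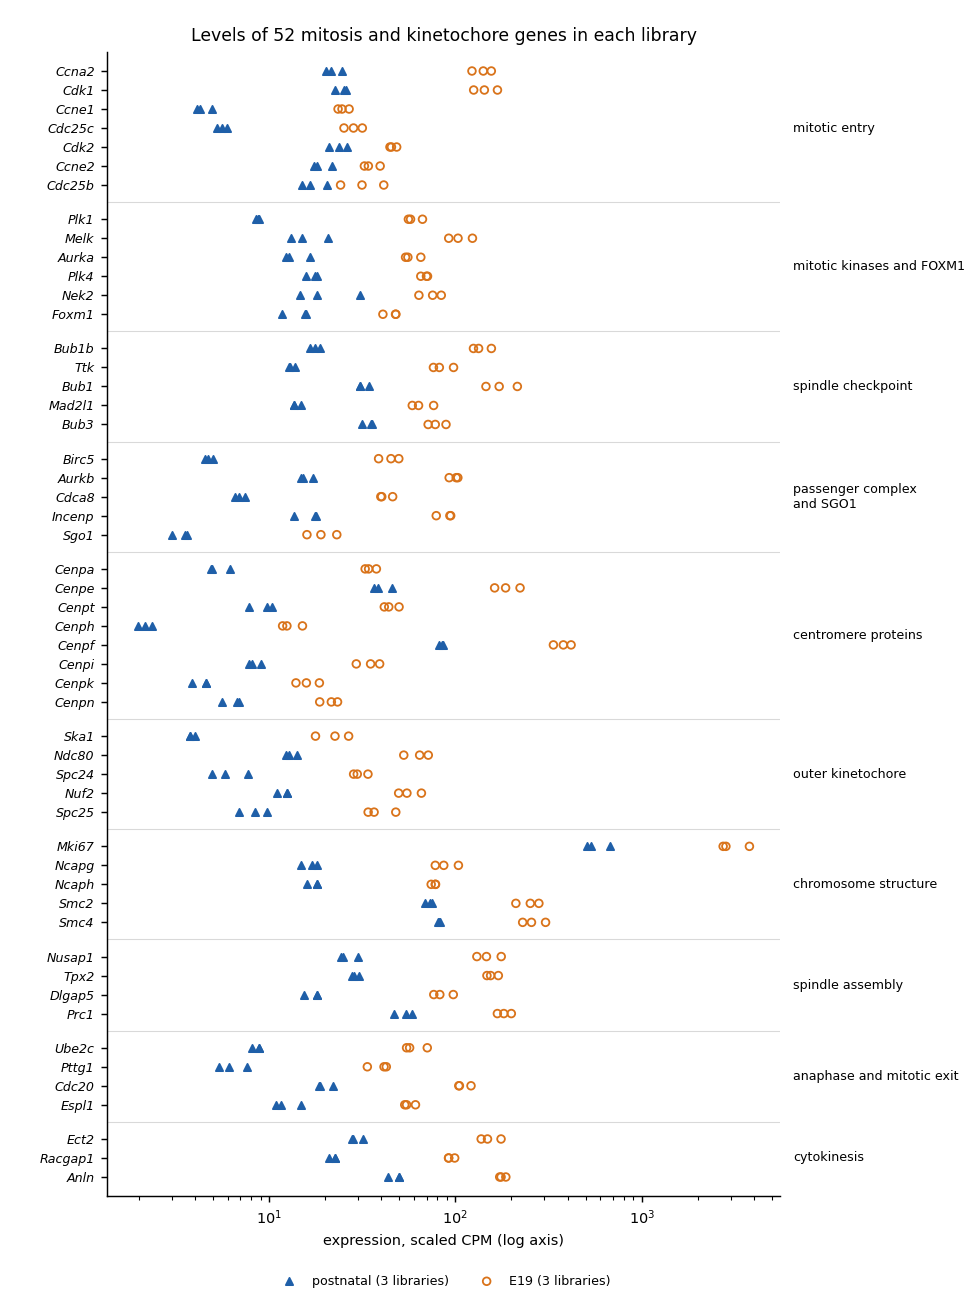
Expression of each of the 52 genes in the 3 postnatal libraries (filled triangles) and the 3 E19 libraries (open circles), in scaled CPM on a logarithmic axis, with genes grouped by role and ordered by fold change within it. No postnatal point reaches an E19 point of the same gene, and the gap is narrowest for Cdc25b.

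The genes of mitotic kinases and of FOXM1, the transcription factor of late cycle genes, fell in 6 of 6 cases. Plk1, encoding polo-like kinase 1, which acts in spindle assembly and mitotic entry, was the steadiest of them after birth, at 8.56, 8.67 and 8.78 in postnatal libraries, against 57.4, 56.0 and 66.6 in E19 libraries. The postnatal coefficient of variation was 1.27%, and the log2 fold change -2.65 ± 0.11. Plk4, whose product starts centriole duplication, fell by 1.94 ± 0.10, and Aurka, encoding the centrosomal kinase Aurora A, by 2.00 ± 0.14. Melk, encoding a kinase of dividing and progenitor cells, fell by 2.64 ± 0.18. Nek2, encoding a kinase of centrosome separation, varied most of the 52 after birth (coefficient of variation 40.4%), with 30.9, 18.1 and 14.6 in postnatal replicates 1, 2 and 3 and 63.7, 75.5 and 84.0 in E19 libraries. Postnatal replicate 1 was its highest postnatal library, and the fall of 1.82 ± 0.25 was 2.12 with that library left out. Foxm1 had 15.6, 15.9 and 11.7 in postnatal libraries and 47.9, 40.8 and 47.7 in E19 libraries (-1.60 ± 0.14).

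Spindle checkpoint genes, whose products hold back anaphase until every kinetochore is attached, fell in 5 of 5 cases. Bub1b, encoding BubR1, reached 18.7, 16.7 and 17.6 in postnatal libraries, against 125, 133 and 156 in E19 libraries. The postnatal mean was 12.8% of the E19 mean (-2.89 ± 0.11; limma adjusted p = 1.27e-05). Ttk, encoding the checkpoint kinase MPS1, fell by 2.60 ± 0.12, Bub1 by 2.43 ± 0.15 and Mad2l1, encoding MAD2, by 2.16 ± 0.12. Bub3, whose product tethers BUB1 and BubR1 to the kinetochore, kept 42.9% of its E19 mean, with 35.9, 31.4 and 35.1 in postnatal libraries and 71.4, 78.0 and 89.1 in E19 libraries. Its log2 fold change of -1.19 ± 0.11 was the smallest of the checkpoint genes, with a 95% interval of -1.45 to -0.93; that of Mad2l1, the next smallest, was -2.44 to -1.87.

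The chromosomal passenger complex, which corrects faulty attachments and later steers cytokinesis, contained the gene with the largest fall of the 52. Birc5, encoding its subunit survivin, stood at 4.56, 4.68 and 4.99 in postnatal libraries and at 38.7, 45.1 and 49.7 in E19 libraries. The postnatal mean was 10.7% of the E19 mean (-2.98 ± 0.13; limma adjusted p = 1.48e-05). The kinase gene of the complex, Aurkb, fell by 2.58 ± 0.10, and the scaffold genes Cdca8, encoding borealin, and Incenp fell by 2.43 ± 0.11 and 2.37 ± 0.13. Sgo1, encoding shugoshin, the protector of centromeric cohesion, was low in both groups, at 3.64, 2.99 and 3.55 in postnatal libraries and 15.97, 19.0 and 23.1 in E19 libraries (-2.20 ± 0.16).

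Centromere genes fell in 8 of 8 cases. Cenpa, encoding the histone H3 variant that marks centromeres, had 4.96, 6.19 and 4.88 in postnatal libraries and 32.8, 34.2 and 37.7 in E19 libraries, and fell furthest of them (-2.50 ± 0.13; limma adjusted p = 1.84e-05). Cenpe, encoding a kinetochore kinesin, and Cenpf, encoding a large protein of the outer kinetochore, fell by 2.21 ± 0.14 and 2.14 ± 0.11. The genes of the constitutive centromere network ranged from Cenpt (-2.17 ± 0.14) and Cenph (-2.15 ± 0.14) through Cenpi (-1.93 ± 0.14) and Cenpk (-1.67 ± 0.15) to Cenpn. The added 1 weighs more on low genes, and Cenph kept 16.5% of its E19 mean against 20.6% for Cenpt. Cenpn, whose product binds CENP-A nucleosomes, had 6.88, 5.61 and 6.69 in postnatal libraries and 18.7, 21.6 and 23.3 in E19 libraries (-1.58 ± 0.14). Its postnatal mean was 30.2% of the E19 mean, against 15.3% for Cenpa.

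Genes of the NDC80 complex and its partner SKA, which grip the microtubule, fell in 5 of 5 cases and by similar amounts. Their log2 fold changes lay between -2.25 and -2.11, with SEs of 0.13 to 0.17. This closeness depends in part on the scale. With 0.1 added instead of 1, they ran from -2.49 for Ska1 to -2.22 for Spc25. Ska1 was at 3.75, 3.99 and 3.76 in postnatal libraries and 17.7, 22.6 and 26.7 in E19 libraries (-2.25 ± 0.16). Spc25 was at 9.77, 6.88 and 8.43 in postnatal libraries and 34.0, 36.6 and 47.9 in E19 libraries (-2.11 ± 0.17). Between them stood Ndc80 (-2.17 ± 0.13), Spc24 (-2.16 ± 0.17) and Nuf2 (-2.15 ± 0.13).

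**Figure D3:**
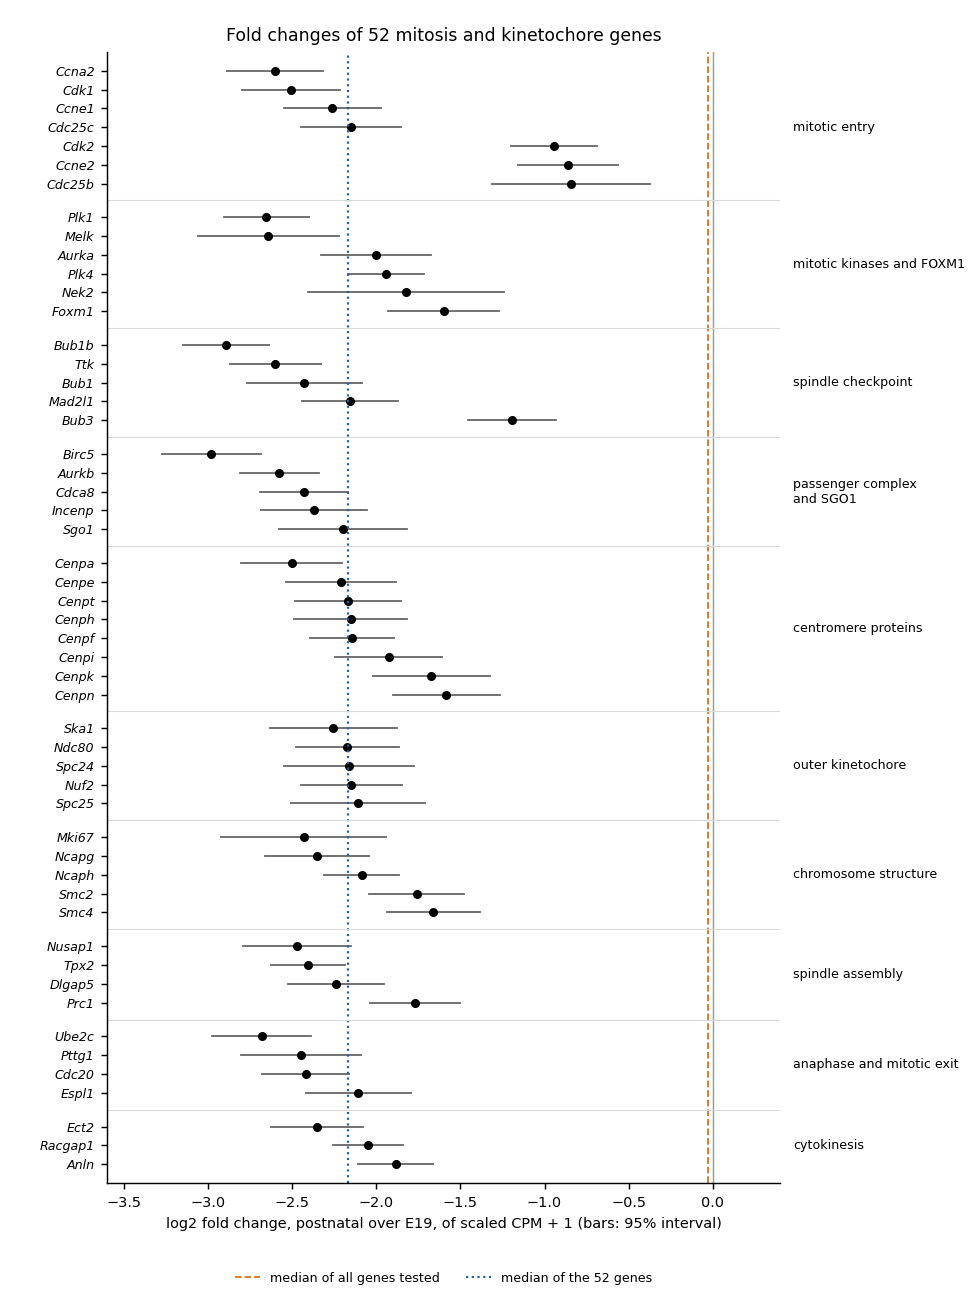
Log2 fold change of each of the 52 genes, postnatal over E19, with its 95% interval from limma, grouped by role. All intervals lie below 0, from Birc5 at -2.98 to Cdc25b at -0.84; the dotted line marks the median of the 52 genes (-2.17) and the dashed line that of all genes tested (-0.03).

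Genes that shape mitotic chromosomes fell in 5 of 5 cases. Mki67, encoding Ki-67, the chromosome surface protein used as a proliferation marker, stood at 680, 535 and 511 in postnatal libraries and at 2833, 2738 and 3788 in E19 libraries (-2.43 ± 0.21; limma adjusted p = 8.16e-05). It alone took 35.7% ± 3.04 of the reads of the 52 genes in postnatal libraries and 40.3% ± 2.37 in E19 libraries, and without it the other genes still summed to 1030 ± 26.8 scaled CPM in postnatal libraries and 4601 ± 494 in E19 libraries (SD, n = 3 each). Scaled CPM is not corrected for transcript length, so these percentages are shares of reads, not of transcripts. The condensin I subunit genes Ncapg and Ncaph fell by 2.35 ± 0.13 and 2.09 ± 0.10. The SMC subunit genes, shared by both condensins, fell less. Smc4 had 82.2, 81.1 and 83.0 in postnatal libraries and 230, 256 and 305 in E19 libraries (-1.66 ± 0.12), and Smc2 fell by 1.76 ± 0.12.

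Spindle assembly genes fell in 4 of 4 cases. Nusap1, encoding a microtubule bundling protein, had 29.9, 24.8 and 24.3 in postnatal libraries and 130, 147 and 176 in E19 libraries (-2.47 ± 0.14). Tpx2, whose product activates Aurora A on the spindle, fell by 2.41 ± 0.09 and Dlgap5, encoding the spindle protein HURP, by 2.24 ± 0.12. Prc1, which bundles the midzone of the anaphase spindle, fell least, with 46.9, 54.0 and 58.2 in postnatal libraries and 168, 182 and 200 in E19 libraries (-1.77 ± 0.12).

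Genes of anaphase and mitotic exit fell in 4 of 4 cases. Ube2c, encoding the ubiquitin-conjugating enzyme of the anaphase-promoting complex, had 8.05, 8.81 and 8.84 in postnatal libraries and 54.7, 56.8 and 70.7 in E19 libraries (-2.68 ± 0.13). Pttg1, encoding securin, and Cdc20, encoding the activator that targets securin for destruction, fell by 2.45 ± 0.15 and 2.42 ± 0.11. Espl1, encoding separase, the protease that securin holds in check, had 14.8, 11.5 and 10.9 in postnatal libraries and 61.1, 53.5 and 54.7 in E19 libraries (-2.11 ± 0.13). In cytokinesis, Ect2, an activator of RhoA, had 28.3, 27.7 and 31.8 in postnatal libraries and 138, 149 and 176 in E19 libraries (-2.35 ± 0.12). Racgap1, its partner at the midzone, fell by 2.05 ± 0.09. Anln, encoding the furrow scaffold anillin, had 43.3, 50.1 and 49.6 in postnatal libraries and 176, 173 and 187 in E19 libraries (-1.89 ± 0.10).

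Related genes were compared as log2 ratios of scaled CPM + 1 within each library. A change in such a ratio means that the members of a pair fell by unequal amounts on that scale. The added 1 weighs more on low genes, so a ratio can also shift where both members fell by the same proportion. The log2 ratio of Cdk1 to Cdk2 was -0.05, -0.05 and 0.30 in postnatal replicates 1, 2 and 3 and 1.45, 1.66 and 1.78 in E19 replicates 1, 2 and 3, a difference of -1.56. For Ccne1 to Ccne2 the ratio was -1.69, -1.85 and -2.11 in postnatal libraries and -0.52, -0.26 and -0.66 in E19 libraries, a difference of -1.40, which was -0.92 with a pseudocount of 5. For Cdc25b to Cdc25c it averaged 1.46 ± 0.26 in postnatal libraries and 0.15 ± 0.47 in E19 libraries (SD, n = 3 each). The difference, postnatal minus E19, was -0.71 for Plk1 to Plk4, 0.58 for Aurka to Aurkb and 0.47 for Bub1 to Bub1b. Smc2 and Smc4, which form 1 heterodimer, differed least in their ratio, at -0.19 ± 0.05 in postnatal libraries and -0.09 ± 0.06 in E19 libraries. The groups did not overlap in any of the 7 pairs compared. The two-sided exact permutation p was 0.1 for each, also after adjustment over the 7 pairs, and 3 libraries against 3 cannot give less.

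**Figure D4:**
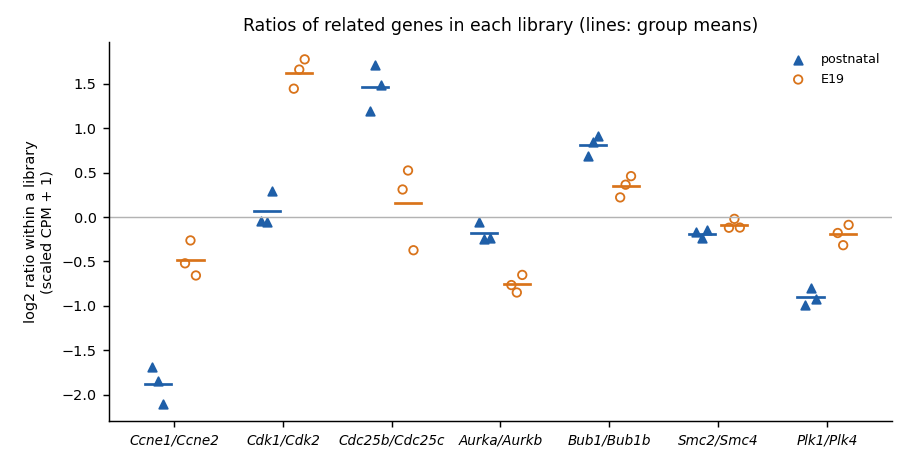
Log2 ratio of related genes within each library, from scaled CPM + 1, for 7 pairs; filled triangles are postnatal libraries, open circles E19 libraries and lines the group means. The means lie farthest apart for Cdk1/Cdk2, by -1.56, and closest for Smc2/Smc4, by -0.10.

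The E19 libraries also differed from each other in a shared way, and the postnatal libraries did so less. In E19 libraries, replicate 3 was highest for 46 of the 52 genes and replicate 1 lowest for 42, where 42.7% and 47.2% of all genes tested had those extremes. The median gene of the 52 lay 0.16 above its E19 mean on the log2 scale in replicate 3 and 0.15 below it, at -0.15, in replicate 1. Over all genes tested, the median deviations in these libraries were 0.02 and -0.05. In postnatal libraries, replicate 1, labelled week 2, was highest for 27 of the 52 genes (41.0% of all genes tested), replicate 2, labelled week 3, for 8 and replicate 3, labelled week 4, for 17. The median deviations of the 52 genes in postnatal replicates 1, 2 and 3 were 0.06, -0.04 and 0.01, against 0.003, -0.011 and 0.001 over all genes tested. The median coefficient of variation of the 52 was 8.88% in postnatal libraries and 12.1% in E19 libraries, and that of all genes tested 13.5% and 11.7%.

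Other genes of the same machinery, from 5 lists, also fell in most cases. Of 24 further centromere and kinetochore genes, 23 fell and none rose, with a median log2 fold change of -2.01. Over all genes tested, 33.1% were lower and 30.0% were higher. The largest falls were those of Kif2c, a kinesin that depolymerises microtubules at centromeres (-2.49 ± 0.12), and Kif18a, a kinesin that dampens chromosome movement (-2.45 ± 0.18). Mis12 did not pass, at 9.92 ± 0.303 in postnatal libraries and 12.3 ± 0.718 in E19 libraries (SD, n = 3 each; limma adjusted p = 0.0571). Its partners in the MIS12 complex, Dsn1 (-2.08 ± 0.13), Nsl1 (-1.77 ± 0.13) and Pmf1 (-2.03 ± 0.11), all fell.

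The anaphase-promoting complex, the ubiquitin ligase that ends mitosis, had 17 of 17 genes lower, with a median of -0.84. Fbxo5, encoding its inhibitor EMI1, fell by 2.28 ± 0.12, and the subunit gene Anapc15 by 1.40 ± 0.15, whereas the core subunit gene Anapc2 fell by 0.33 ± 0.08. In cohesin and condensin II, 10 of 14 genes fell and 1 rose (median -0.60). For each of these lists, the shares over all genes tested were 33.1% lower and 30.0% higher. Cdca5, encoding sororin, and Esco2, an acetyltransferase of cohesin in S phase, fell by 1.95 ± 0.13 and 1.45 ± 0.17. The gene that rose was Mau2, a subunit of the cohesin loader, at 101 ± 1.65 in postnatal libraries and 70.3 ± 2.29 in E19 libraries (0.52 ± 0.08). Of 9 genes of the entry switch, 8 fell and none rose (median -0.95), led by Ccnf, encoding cyclin F (-2.66 ± 0.13), and Cks2, a subunit of cyclin-dependent kinase complexes (-2.42 ± 0.16).

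Regulators that bind promoters of cell cycle genes fell in most cases. Of 18 genes of the E2F, DREAM and MuvB assemblies, 14 fell, 2 rose and 2 did not pass (median -0.68). Over all genes tested, 33.1% were lower and 30.0% were higher, so the share that rose in this list was below that of all genes. Mybl2, encoding B-MYB, the activating partner of the MuvB core, had 6.06 ± 1.54 in postnatal libraries and 39.9 ± 3.98 in E19 libraries, and fell by 2.56 ± 0.18. E2f8, an atypical E2F repressor gene, fell by 2.07 ± 0.19. The genes that rose encode pocket proteins. Rb1, encoding the retinoblastoma protein, stood at 47.1 ± 7.89 in postnatal libraries and 19.8 ± 1.45 in E19 libraries (1.198 ± 0.14; limma adjusted p = 2.98e-04). Rbl2, encoding p130, the pocket protein of the DREAM repressor in resting cells, stood at 68.1 ± 5.19 in postnatal libraries and 33.9 ± 3.75 in E19 libraries (0.99 ± 0.11). The other pocket protein gene, Rbl1, encoding p107, fell by 1.09 ± 0.09. After rescaling without the 20 genes of highest mean, 12 genes of this list fell and 4 rose, and 9 of the cohesin and condensin II list fell and 3 rose. In that setting 5047 of the 12926 genes tested were higher and 3222 were lower. The same rescaling left 14 genes of the anaphase-promoting complex and 6 of the entry switch lower.

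**Figure D5:**
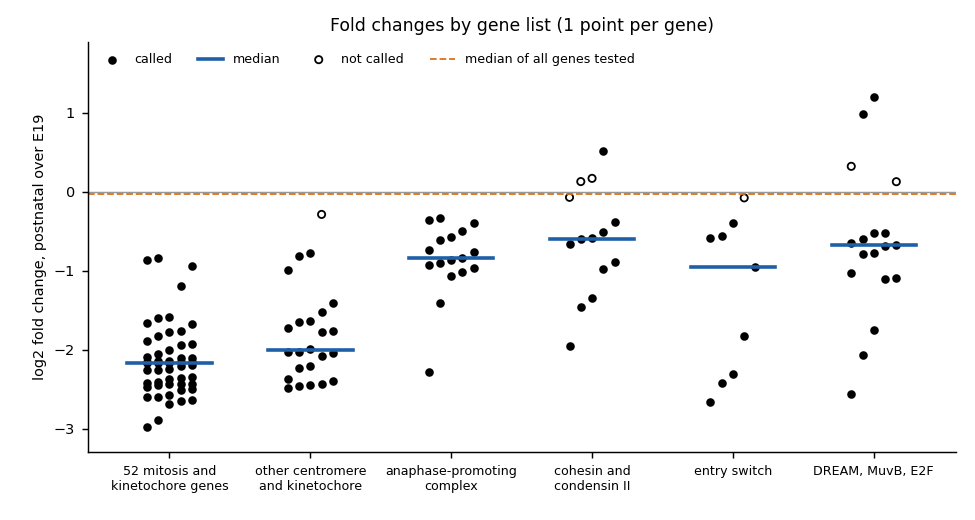
Log2 fold change, postnatal over E19, of each gene tested in 6 lists; filled points passed the limma threshold, open points did not, and bars mark list medians. The 52 mitosis and kinetochore genes (median -2.17) and the other centromere and kinetochore genes (median -2.01) lie lowest, and Rb1, Rbl2 and Mau2 are the called points above 0.

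In promoters of these lists, the CHR letters were present in 7 of 18 promoter windows of the other centromere and kinetochore genes, 3 of 6 of the entry switch genes and 7 of 14 of the E2F, DREAM and MuvB genes, and in 2 of 14 of the anaphase-promoting complex genes and 3 of 12 of the cohesin and condensin II genes. The share was 62.8% among the mitosis and kinetochore genes with a window and 11.6% among all genes tested. A CCAAT box was present in 6 of 18 windows of the other centromere and kinetochore genes, against 37.6% among all genes tested. It was in 5 of 6 of the entry switch genes and 8 of 14 of the anaphase-promoting complex genes. The counts were 3 of 12 for cohesin and condensin II and 5 of 14 for E2F, DREAM and MuvB genes.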

How the data were processed

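A strand-preserving kit with ribosomal RNA depletion was used, per the labels' protocols. The submitters' processing notes list TopHat2 2.0.8b and edgeR 3.30.3 but no roles. Genome build, annotation, read counter and strand setting: not given in the sources used here. Overlapping genes or near-identical copies may therefore share reads. The authors deposited a single table with a normalized signal for each gene and library. Each deposited signal equals whole reads multiplied by 1 constant per library (100% of values whole within 0.001 reads), here called scaled CPM; the columns sum to 799845 to 1477540. A row without a gene name (1 to 9 reads per library, at most 3.19e-05%) was left out.

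Samples were grouped by title. limma 3.58.1 (R 4.3.3; trend, group as the only term, two-sided) was run on log2(value + 1) for genes with at least 1 in at least 3 libraries, a scale that understates the change of low genes. No pair of replicates agreed within sampling noise (chi-square divided by its degrees of freedom was at least 45.6). The genes, lists, tests and alternatives were chosen with earlier results of these data known. Values per library are given for the largest and smallest change of each role and for Mki67, Cdk1, Birc5 and Cenpa; Cdk2 and Nek2 were added after their values were seen. Of other lists (151 of 173 entries in the table), the 2 largest changes each way are named; Dsn1, Nsl1, Pmf1, Rbl1 and Anapc2 were added after their values were seen. The fit was tested on simulated data. As alternatives, recovered reads were tested with edgeR 4.0.16, which called 4060 genes higher and 4068 lower, and with DESeq2 1.42.0. Promoter sequences come from RefSeq (GRCr8), matched by symbol.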

Additional observations from a re-analysis of the deposited data

How the results depend on the processing

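All 52 genes fell under each of 15 of the 16 alternatives run. The exception was rescaling without the 20 genes of highest mean, in which 51 fell and Cdc25b did not pass (-0.61; adjusted p = 0.0512). That rescaling moved the median of all genes tested to 0.20, against -0.03 as deposited, and the median of the 52 genes to -1.95, which lay 2.15 below the median of all genes, against 2.14 below it as deposited. It also moved the share of calls that were higher to 61.0% (5047 higher and 3222 lower), against 47.5% as deposited (3874 higher and 4278 lower), and gave 3 higher and 9 lower genes among cohesin and condensin II genes and 4 higher and 12 lower among E2F, DREAM and MuvB genes, with 14 lower in the anaphase-promoting complex and 6 in the entry switch. The median of the 52 genes was -2.31 with a pseudocount of 0.1 and -1.88 with 5, as the scale itself implies. With each library left out in turn it ran from -2.27 to -2.09, and 52 genes fell each time. edgeR and DESeq2 on recovered reads each called 52 lower, where 31.5% and 32.2% of genes were called lower, with medians of -2.27 for both. Leaving out postnatal replicate 1 and E19 replicate 2 together was chosen after the data were seen. With the replicate number as a block 52 genes fell, with a median of -2.17; deviations of same-numbered libraries correlated at -0.21, 0.10 and -0.25, so the numbers show no pairing. With 3 libraries a group, an exact test cannot go below 0.1. The lowest count behind a member's value was 39 reads, where counting error is largest.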
